A study of Mus musculus with 6 samples.

Results

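Among the neutrophils of mouse pancreatic tumours, 556 cells were selected on measured counts, by 3 conditions: at least 1 UMI (a counted RNA molecule) of Siglecf, which encodes the sialic acid receptor Siglec-F, no UMI of Cxcr2, the receptor that draws neutrophils to CXC chemokines, and at most 3 UMIs summed over the interferon-induced genes Isg15, Ifit1, Ifit3 and Rsad2. They were taken from 13684 neutrophils, themselves gated from 47794 cell barcodes. The neutrophil gate asked for at least 1% of a cell's UMIs in S100a8, S100a9, Csf3r, Cxcr2, Il1r2 and G0s2, at most 3 UMIs of the macrophage genes C1qa, C1qb and C1qc, at most 1 UMI of Cd3d, Cd3e, Cd3g and Trac, and under 0.5% of UMIs in Cd74, H2-Aa and H2-Ab1. The 556 cells are called Siglecf-positive neutrophils here, a name that stands for this rule.

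KPC cells, from a pancreatic cancer model of the mouse, were grown as tumours in the pancreas of wild-type C57BL/6J hosts. Of the 6 mice, 3 received IgG and 3 the #44-anti-mVSIG4 antibody, directed at mouse VSIG4, a complement receptor of macrophages; dose, route and schedule were not in the labels. Tumours were taken 11 days after inoculation of the cells, and each mouse gave 1 library, so the mouse was the replicate. Both arms share the wild-type host strain and the KPC tumour.

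Neutrophils leave the bone marrow with Cxcr2 on their surface and with preformed granule proteins, and they lose that receptor as they age or settle in tissue. Siglec-F is best known from eosinophils and alveolar macrophages, and has also been described on long-lived neutrophils in tumours and injured tissue. Ltc4s encodes leukotriene C4 synthase, Ddit3 the stress-induced transcription factor CHOP, Igfbp6 a binding protein of insulin-like growth factors, and Entpd3 an enzyme that breaks down extracellular nucleotides.

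The 6 libraries held 6518 to 9566 barcodes and 26606234 to 47221033 UMIs, and gated neutrophils made up 15.3 to 38.1% of barcodes. Siglecf-positive neutrophils numbered 75, 114 and 67 in IgG 1, 2 and 3 and 110, 55 and 135 in anti-VSIG4 1, 2 and 3. Summed per library, they held 90477 to 303331 UMIs, against 1864511 to 6235650 in the other gated neutrophils, so their own counts set the precision of every comparison below. The libraries differed in kind: barcodes with more than 15% of UMIs in genes longer than 100 kb, a pattern of nuclear RNA, were 1.06% of IgG 1, 21.9% of IgG 2, 48.6% of IgG 3, 0.651% of anti-VSIG4 1, 1.47% of anti-VSIG4 2 and 9.74% of anti-VSIG4 3. Among the Siglecf-positive neutrophils such barcodes made up 0 to 2.22% per library. The deposited barcode names are serial, and 11691 of 32450 distinct names occur in more than 1 library, so the names cannot show whether libraries share cells.

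The gated cells outside the rule fell into 3 classes. Matched neutrophils, 3137 cells, met the Cxcr2 and interferon conditions but had no Siglecf UMI. Cxcr2-positive cells with low interferon genes numbered 2291, and interferon-high cells 7700. Most Siglecf-positive cells lay close to the lower limit, with 405 cells at 1 Siglecf UMI, 119 at 2 and 32 at 3 or more, and a highest count of 6. Just outside the rule were 220 cells with Siglecf and 1 Cxcr2 UMI, and 41 cells with 4 interferon UMIs, beside 51 members with 3 and 277 members with none. At the neutrophil gate, 43 members had 1 to 1.2% of UMIs in the neutrophil genes and 36 otherwise qualifying cells had 0.8 to 1%. The C1q limit left out 6 cells at 4 UMIs and kept 21 at 3, with 283 members at 0, and the T cell limit left out 9 cells at 2 UMIs and kept 52 at 1, with 504 at 0. In all, 1693 gated cells had a Siglecf UMI.

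Siglecf UMIs were concentrated in the neutrophil gate. With every cell thinned to 1000 UMIs, 7.45% of gated neutrophils had one, against 0.235% of T cells, 0.237% of keratin-positive tumour cells and 0.715% of C1q-positive macrophages. Unthinned shares were 12.4, 0.979, 1.66 and 3.75%, at median depths of 1589, 2804, 3755 and 4882 UMIs, and the pooled levels were 90.5, 3.12, 2.59 and 5.71 CPM, that is UMIs scaled to a common library total. After thinning, 373 of the 556 members (67.1%) kept a Siglecf UMI. Whether a cell had a Siglecf UMI thus depended in part on its depth.

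Eosinophil, mast cell and basophil markers were near 0 in the Siglecf-positive neutrophils, and alveolar macrophage markers were not. Of 8 eosinophil markers 3 had a UMI, 7 UMIs in all, and Epx, Prg3, Ear1, Ear6 and Il5ra were at 0; the summed level was 0 to 22.1 CPM per library, against 3.53 to 6.90 in the other gated cells. Mast cell and basophil markers gave 3 UMIs. The alveolar macrophage list, which includes Car4, had 211 UMIs over 5 of its 7 markers and reached 56.4 to 369 CPM against 62.3 to 233, with Fabp1 and Ear1 at 0; its part in the results was not tested. Macrophage markers summed to 556 to 1944 CPM in Siglecf-positive and 583 to 2080 in other gated neutrophils, T and NK markers to 59.3 to 213 CPM in the former, and red cell genes to 16.1 to 221 against 73.9 to 1296. Tumour and acinar markers are given with the treatment results. Their sums in Siglecf-positive cells did not overlap between the arms, and nor did those of the alveolar macrophage, macrophage and neutrophil lists. Ly6g, a defining surface gene of mouse neutrophils, had no UMI in any Siglecf-positive cell. It had UMIs in each other class, which hold many more UMIs in all, and its levels were not compared. The neutrophil list as a whole reached 34074 to 54564 CPM against 46023 to 66505 in the other gated cells. It holds S100a8, S100a9, Csf3r, Cxcr2, Il1r2 and G0s2, which the gate used. The macrophage list holds the C1q genes, and the T and NK list Cd3d, Cd3e, Cd3g and Trac, which the gate capped. The rule thus set part of these sums, and they are a description only.

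At equal depth, Siglecf-positive neutrophils had more genes per cell than the other gated and the matched cells in each library, with an adjusted p at the threshold. At 1000 UMIs they had 537 to 608 genes per cell in the 6 libraries (median 565.5), against 489 to 553 (519.5) in all other gated cells and 498 to 588 (545) in matched cells, and were higher in 6 of 6 libraries against both. They were also deeper, with library medians of 1389 to 2056 UMIs against 1350 to 1789 and, in matched cells, 1250 to 1596. Each of these 4 differences had p = 0.031 in an exact two-sided sign-flip test over libraries, the smallest value that 6 libraries allow. The adjusted p was 0.05 over 8 tests, which is not under the threshold of 0.05. The rule itself favours deeper cells, since a Siglecf UMI is likelier to be seen in them, so the depth difference is given as a description. The share of UMIs in genes longer than 100 kb was lower than in the other gated cells in 6 of 6 libraries. The medians were 6.17 and 6.85% (exact sign-flip p = 0.031, adjusted p = 0.05). Against matched cells it was lower in 3 of 6 (median 6.42%, exact sign-flip p = 0.312). Mitochondrial shares did not pass either (exact sign-flip p = 0.156 and 0.25).

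The share of neutrophils that met the rule overlapped between the arms. It was 3.55, 4.07 and 4.58% of gated neutrophils in IgG 1, 2 and 3 and 3.14, 4.54 and 5.21% in anti-VSIG4 1, 2 and 3, with exact 95% binomial intervals of 2.80 to 4.43, 3.37 to 4.87, 3.57 to 5.78, 2.58 to 3.77, 3.44 to 5.87 and 4.39 to 6.14% that cover counting error only. The lowest and the highest share both belonged to the anti-VSIG4 arm. The means were 4.07 ± 0.516% (SD, n = 3) and 4.30 ± 1.06% (n = 3), a difference of 0.228 percentage points with p = 0.8 in an exact two-sided permutation test (adjusted p = 0.9 over 6 shares); 3 against 3 mice cannot go below p = 0.1. This sign does not hold throughout: the difference was -0.0304 without IgG 1, -0.231 without anti-VSIG4 3 and -0.185 when 2 Siglecf UMIs were asked for. Differences in mean were larger in the other classes and did not pass. Cxcr2-positive cells made up 13.6 ± 0.925% under IgG and 19.9 ± 3.54% under anti-VSIG4, and interferon-high cells 58.8 ± 1.46% and 51.5 ± 8.34%, neither overlapping between arms (exact permutation p = 0.1 each, adjusted p = 0.3).

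**Figure D1:**
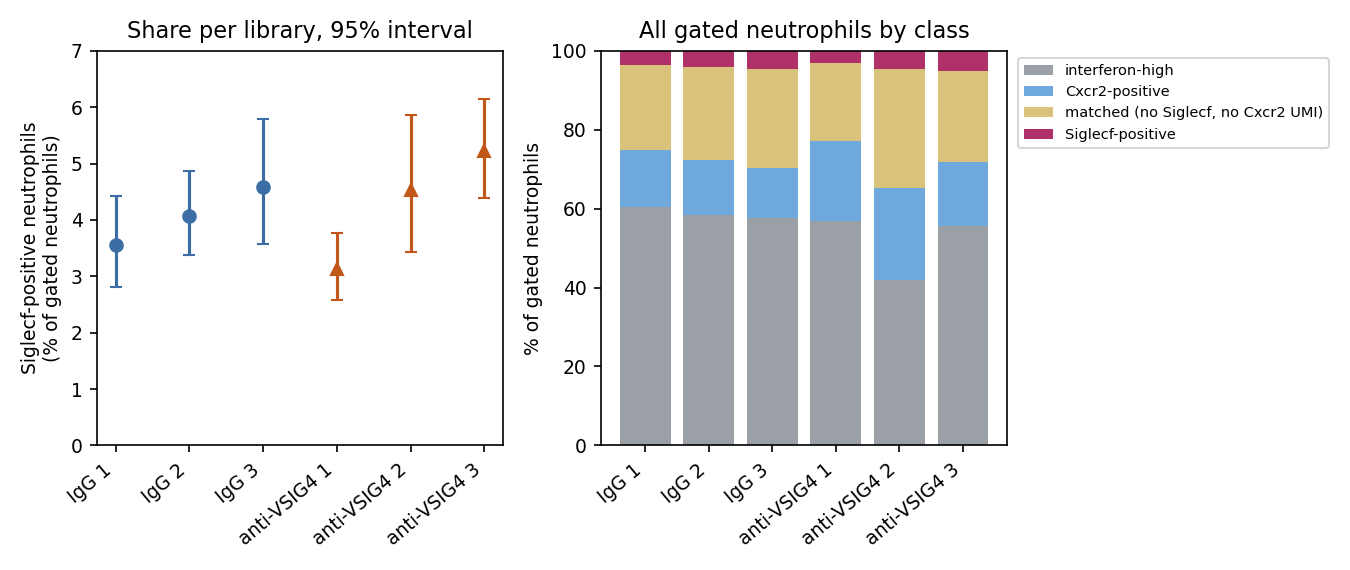
Left, share of gated neutrophils that were Siglecf-positive, in percent, per library, with exact 95% binomial intervals (circles IgG, triangles anti-VSIG4). Right, the 4 classes as percent of gated neutrophils in each library. The Siglecf-positive share lay between 3.14 and 5.21% in all 6 libraries and overlapped between arms, while interferon-high cells were the most frequent class in each.

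The working label for these cells, tumour-adapted neutrophils, rests on 5 markers: Siglecf, Igfbp6, Ltc4s, Ddit3 and Entpd3. Of the 4 that the rule did not use, Ltc4s alone was higher in Siglecf-positive neutrophils, Igfbp6 and Entpd3 did not pass, and Ddit3 passed narrowly as lower than in matched cells. The label is therefore not used further. Siglecf itself, which chose the cells, lay at 623 to 863 CPM (median 703) in them and 52.4 to 81.0 CPM (median 60.0) in all other gated neutrophils, where it came from cells left out for Cxcr2 or interferon genes.

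Ltc4s encodes the enzyme that joins glutathione to leukotriene A4. It lay at 347 to 793 CPM (median 679) in Siglecf-positive, 129.7 to 479 CPM (median 349) in all other gated and 204 to 654 CPM (median 509.6) in matched neutrophils. It was higher within 6 of 6 libraries against all other gated cells and 6 of 6 against matched cells, although the ranges over libraries overlapped; the lowest value in each class came from anti-VSIG4 1. The log2 difference was 0.80 ± 0.11 (SE) against all other gated cells, with an adjusted p of 3.13e-08 from edgeR's quasi-likelihood test with Benjamini-Hochberg adjustment over all genes tested. Against matched cells it was 0.38 ± 0.10 (edgeR adjusted p = 0.0246), a call kept under 7 of 13 alternatives. The call was lost without IgG 1, IgG 3, anti-VSIG4 1 or anti-VSIG4 2, among other alternatives. The edgeR adjusted p was 0.067, 0.079, 0.16 and 0.071 in that order. Over all 13 alternatives the log2 difference ran from 0.209 to 0.451, and the adjusted p reached 0.695 (edgeR or DESeq2). Ltc4s was put forward as a marker with results of these data known, so these values describe it and are no independent support.

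Igfbp6 lay at 588 to 941 CPM (median 734) in Siglecf-positive, 438 to 1000.1 CPM (median 625) in other gated and 542 to 983 CPM (median 751) in matched neutrophils. The values overlapped throughout, and the log2 differences were -0.01 ± 0.10 and -0.04 ± 0.09 (edgeR adjusted p = 0.964 and 0.898). Ddit3 lay at 313 to 1023 CPM (median 485), 330.4 to 912 CPM (median 487) and 404 to 1144 CPM (median 642) in the same order of classes. It did not pass against all other gated cells (-0.12 ± 0.11, edgeR adjusted p = 0.521) and was lower than in matched cells (-0.38 ± 0.11, adjusted p = 0.0476), the opposite direction to the label. That call lay close to the threshold and depends on the scaling. Of the stress genes tested against matched cells 2 were lower, Ddit3 and Ppp1r15a, but 1 when counts were scaled by plain library totals. Entpd3 lay at 134 to 427 CPM (median 189), 174 to 312 CPM (median 221) and 159.7 to 243 CPM (median 205), overlapping throughout, with log2 differences of -0.19 ± 0.15 and 0.12 ± 0.16 that did not pass (edgeR adjusted p = 0.459 and 0.821). None of these 3 genes was higher in Siglecf-positive than in matched neutrophils by this test.

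**Figure D2:**
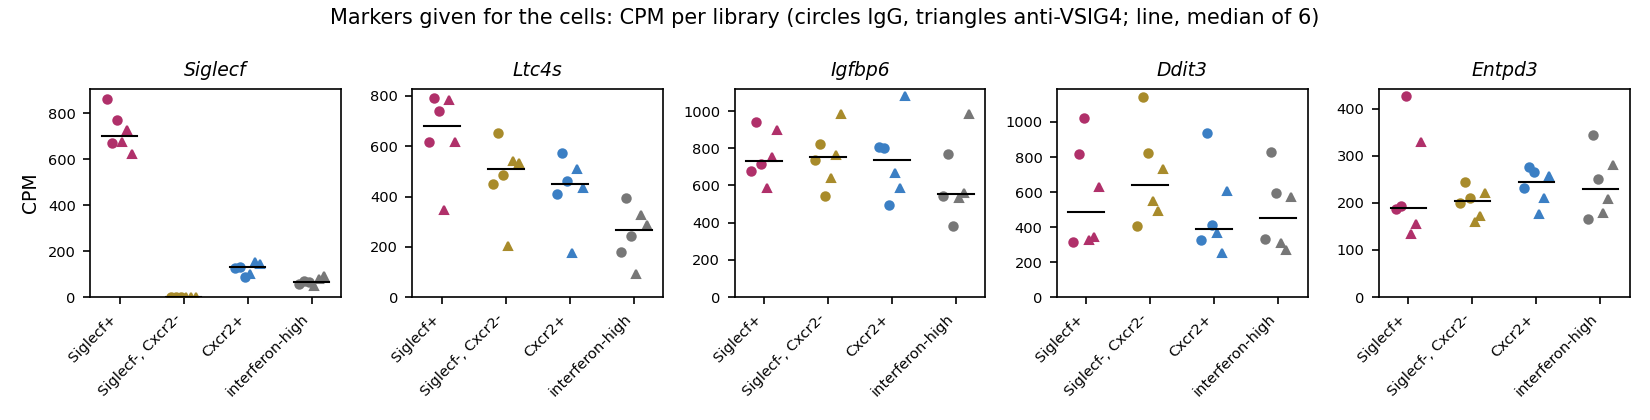
Level in CPM per library of Siglecf, Ltc4s, Igfbp6, Ddit3 and Entpd3 in Siglecf-positive, matched (marked Siglecf-, Cxcr2-), Cxcr2-positive and interferon-high neutrophils (circles IgG, triangles anti-VSIG4, line the median of 6 libraries). Siglecf is 0 in matched cells by the rule; Ltc4s has its highest median, 679 CPM, in Siglecf-positive cells, and Igfbp6, Ddit3 and Entpd3 overlap between the classes.

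The broad comparison, Siglecf-positive against all other gated neutrophils, mixes 3 differences, since 7700 of the 13128 other cells were interferon-high and 2291 Cxcr2-positive. Of 6800 genes tested 1087 passed (16.0%), 350 higher (5.15%) and 737 lower (10.8%), and the median log2 difference over all genes was 0.03. Interferon-induced genes led the lower side, Oasl1 (-3.45), Slfn4 (-2.97) and Irf7 (-2.52) among them, which follows from the cut on interferon genes and is given as a description only. The numbers differ by class: 408 of 3841 genes passed against Cxcr2-positive cells (10.6%; 127 higher, 3.31%, and 281 lower, 7.32%) and 1694 of 4956 against interferon-high cells (34.2%; 792 higher, 16.0%, and 902 lower, 18.2%).

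Against matched neutrophils, which differ by rule in Siglecf alone, 129 of 4504 genes passed (2.86%), 15 higher (0.333%) and 114 lower (2.53%), and the median over all genes was 0.01. The Cxcr2 and interferon cuts are UMI counts, and Siglecf-positive cells were deeper (median 1683 against 1420 UMIs per cell), so the same cut is stricter in them. Among cells of 1000 to 2000 UMIs 46 of 3131 genes passed. The part of depth was not tested. Of the 129, 118 passed in the same direction against all other gated cells and 0 in the opposite one; the 2 comparisons share the Siglecf-positive cells and the matched cells, so this is a description. The split into higher and lower depends on the scaling. With TMM factors, used for the log2 differences here, 32.2% of the calls in the broad comparison were higher; with plain library totals the median over all genes moved to 0.20 and 62.2% were higher (821 against 498 lower). Against matched cells the share rose from 11.6 to 35.1% (39 higher, 72 lower) and the median to 0.08. Differences below are relative to the TMM scale. The median of a list changed sign with library totals for the stress, hypoxia and lysosome lists against all other gated cells, and for the stress, death receptor, NADPH oxidase, T cell inhibition and Siglec lists against matched cells.

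Gpr171, a G protein-coupled receptor first known from lymphocytes, had the smallest adjusted p among the 15 genes higher than in matched neutrophils. It lay at 88.4 to 242 CPM (median 100.2) in Siglecf-positive, 29.2 to 59.7 CPM (median 43.2) in other gated and 32.5 to 78.7 CPM (median 66.2) in matched cells. The lowest Siglecf-positive library was above the highest library of either other set, and IgG 3 was the highest. The log2 difference was 1.29 ± 0.19 against all other gated cells (edgeR adjusted p = 3.71e-07) and 1.03 ± 0.20 against matched cells (adjusted p = 0.00139). It kept its call in 11 of 13 alternatives; when the gate was applied to cells thinned to 1000 UMIs the difference from matched cells was 0.55 (edgeR adjusted p = 0.18), and among cells of 1000 to 2000 UMIs 0.93 (adjusted p = 0.075).

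Hvcn1, the voltage-gated proton channel that lets the phagocyte oxidase keep working, lay at 50.9 to 155 CPM (median 119) in Siglecf-positive and 26.0 to 74.0 CPM (median 60.1) in matched cells. The lowest library of the first set lay inside the range of the second, and the value was higher within 6 of 6 libraries; the log2 difference was 0.88 ± 0.22 (edgeR adjusted p = 0.0184). Gpd1l, related to the glycerol-3-phosphate dehydrogenases, lay at 27.8 to 153 CPM (median 58.8) against 12.1 to 45.7 CPM (median 24.7), with a log2 difference of 1.34 ± 0.29 (edgeR adjusted p = 0.00378). Both lost the call when the gate was applied to thinned cells, at 0.50 (adjusted p = 0.42) and 0.76 (0.27) in edgeR. Gpd1l kept it under the other 10 of 11 alternatives and Hvcn1 under 7 of 13. Hvcn1 lost it as well without anti-VSIG4 1, 2 or 3 (0.75 to 0.87, edgeR adjusted p = 0.057 to 0.089), with no filter on low counts (0.71, 0.069) and among cells of 1000 to 2000 UMIs (0.56, 0.51).

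The other higher genes were Uqcc3, an assembly factor of respiratory complex III (0.76), Cox6b1, a subunit of complex IV (0.29), Atp5mj, a small subunit of ATP synthase (0.40), Tmem126a, a complex I assembly factor (0.84), and Tmem14c, an inner membrane protein of haem synthesis (0.47), with no list or test behind what they share. Rbx1, a RING subunit of cullin ubiquitin ligases (0.42), H1f2, a linker histone (0.38), Rgs3, a brake on G protein signalling (0.64), Eef1e1 (1.13), Hnrnpa3 (0.56) and the ferritin receptor Ncoa4 (1.06) completed the 15 with Ltc4s. Uqcc3 lay at 92.6 to 249.6 CPM (median 113) against 52.4 to 108 CPM (median 66.2), and Cox6b1 at 731 to 1052 CPM (median 853) against 512 to 851 CPM (median 662); both overlapped between the sets. Calls were kept under 6 of 13 alternatives for Uqcc3, 3 of 13 for Cox6b1, 5 of 13 for Atp5mj, 4 of 12 for Tmem126a and 7 of 13 for Tmem14c. Leaving out 1 library at a time ended the call of Uqcc3 for 4 of the libraries, IgG 1, IgG 3, anti-VSIG4 1 and anti-VSIG4 2 (adjusted p up to 0.30 in edgeR), and that of Cox6b1 for each of the 6 (up to 0.24). These genes were named after their values were seen.

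Of the 114 lower genes, the 20 with the smallest p kept their calls in all, or all but 1, of up to 13 alternatives. Ccl6, a chemokine of myeloid cells, lay at 178 to 509 CPM (median 245) in Siglecf-positive, 593 to 1721 CPM (median 951) in other gated and 412 to 1334 CPM (median 718) in matched neutrophils. It was lower within 6 of 6 libraries against matched cells, though the ranges overlapped in their ends, and did not overlap with all other gated cells. The log2 difference from matched cells was -1.41 ± 0.14 (edgeR adjusted p = 1.82e-07).

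Osm, the cytokine oncostatin M, lay at 56.4 to 262 CPM (median 172), 527 to 932 CPM (median 767) and 265 to 497 CPM (median 371) in the same order. Its highest Siglecf-positive library lay below the lowest library of both other sets, and IgG 3 was the lowest of all. The log2 difference was -2.36 ± 0.16 against all other gated cells and -1.20 ± 0.16 against matched cells (edgeR adjusted p = 3.45e-12 and 8.63e-06). Slpi, an inhibitor of neutrophil elastase, lay at 129 to 709 CPM (median 358) against 588 to 1051 CPM (median 685) in matched cells (-1.12 ± 0.12, edgeR adjusted p = 4.92e-07); with the gate on thinned cells it was -0.93 (adjusted p = 0.37). S100a6, a calcium-binding protein, lay at 584 to 1037 CPM (median 642) against 706 to 1737 CPM (median 1485) (-0.91 ± 0.11, edgeR adjusted p = 2.09e-06), and likewise did not pass on thinned cells (-1.01, adjusted p = 0.21).

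Smox, which oxidises spermine, lay at 177 to 287 CPM (median 216) against 318 to 514 CPM (median 348), and Ankrd33b at 144 to 289.9 CPM (median 235) against 311 to 573 CPM (median 419). Neither overlapped with matched cells, nor did Basp1, a membrane-linked signalling protein, at 2191 to 3122 CPM (median 2782) against 3204 to 3827 CPM (median 3403). The log2 differences were -0.87, -0.92 and -0.39 (edgeR adjusted p = 1.36e-05, 2.57e-06 and 0.000145). Ier3, an early response gene tied to survival, was lower as well (-0.72 ± 0.08, edgeR adjusted p = 1.82e-07), with anti-VSIG4 1 at the top of its range of 922 to 2564 CPM (median 1009). Stfa2l1, one of a cluster of near-identical stefin genes whose reads cannot be told apart with certainty, lay at 0 to 134 CPM (median 15.5) against 36.9 to 266 CPM (median 89.2).

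**Figure D3:**
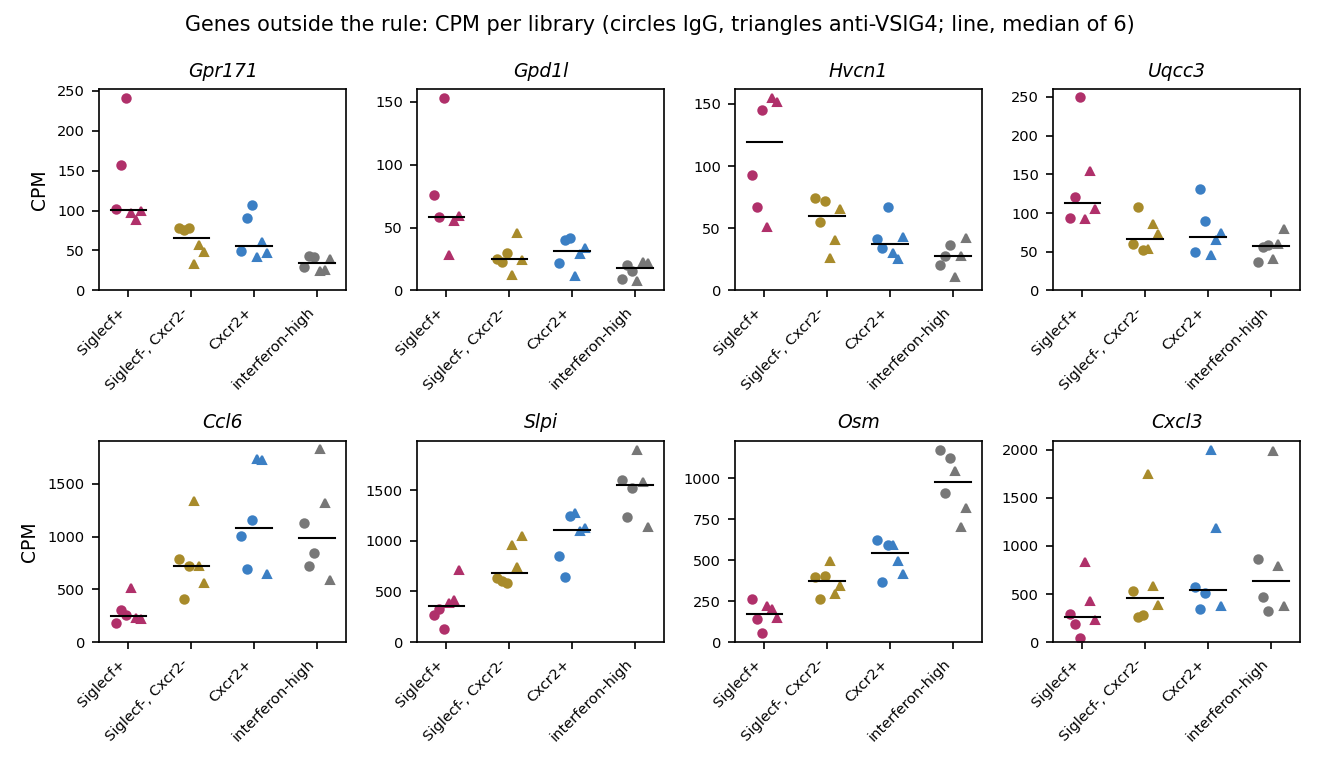
Level in CPM per library of 4 genes higher (Gpr171, Gpd1l, Hvcn1, Uqcc3) and 4 lower (Ccl6, Slpi, Osm, Cxcl3) in Siglecf-positive than in matched neutrophils, in the 4 classes (circles IgG, triangles anti-VSIG4, line the median of 6 libraries). Gpr171 and Osm do not overlap between Siglecf-positive and matched cells; the other 6 genes overlap.

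Most tested receptors that bring neutrophils into tissue were lower than in all other gated cells. Of 21 listed adhesion and chemoattractant receptors 19 were tested against all other gated cells. Of these 14 were lower (73.7%, beside 10.8% of all genes) and 0 higher (median -0.85 on the TMM scale, beside 0.03 over all genes). With library totals 12 were lower and 0 higher. Against matched cells 4 of 18 were lower (22.2%, beside 2.53% of all genes) and 0 higher (median -0.29, beside 0.01), and 3 were lower with library totals. These shares over all genes, and 5.15% and 0.333% for higher genes in the same order, stand beside every list count below on the TMM scale. Cxcr2 is left out of this list because the rule used it.

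Cd44, the hyaluronan receptor, lay at 225 to 375 CPM (median 282) in Siglecf-positive, 392 to 747 CPM (median 534) in other gated and 317 to 590.4 CPM (median 399.9) in matched cells, with log2 differences of -1.09 ± 0.12 and -0.56 ± 0.12 (edgeR adjusted p = 1.97e-10 and 0.00542). Fpr1, the formyl peptide receptor, and Ptafr, the receptor of platelet-activating factor, were also lower than in matched cells, by -1.19 and -0.33 (edgeR adjusted p = 0.0237 and 0.0395). Cxcr1, the other CXC receptor, lay at 0 to 11.1 CPM (median 0) against 14.1 to 35.3 CPM (median 21.5) in all other gated cells and was too low to test against matched cells. Selplg (-1.38), Itgal (-1.46), C5ar1 (-0.89) and the marrow-retention receptor Cxcr4 (-0.73) were lower than in all other gated cells and did not pass against matched cells, where Cxcr4 was at -0.07.

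Of the other Siglec genes, Cd33 was lower than in all other gated cells (-0.76 ± 0.20, edgeR adjusted p = 0.0038) and Siglece did not pass (-0.35 ± 0.16, 0.138); 3 of the 7 listed were tested, and Siglecf was left out because it chose the cells.

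Of 15 granule genes tested, 5 were lower than in all other gated cells and 1 higher (median -0.24; 5 and 2 with library totals), and 3 of 11 were lower than in matched cells with 0 higher (median -0.24; 2 with library totals). Retnlg, resistin-like gamma of circulating neutrophils, lay at 4.48 to 181 CPM (median 20.7) against 339.8 to 979.5 CPM (median 712) in other gated and 127 to 1174 CPM (median 320.1) in matched cells. It passed against the former (-3.45 ± 0.52, edgeR adjusted p = 0.00941) and not the latter (-2.49 ± 0.56, 0.113). Wfdc17, a small secreted protease inhibitor-like protein, lay at 40.3 to 310.1 CPM (median 108), 417 to 1007 CPM (median 646) and 113 to 408 CPM (median 233) and passed in both (-2.51 and -0.87, edgeR adjusted p = 6.41e-11 and 0.0012). Cd63, a tetraspanin of azurophil granules, was the 1 gene higher than in all other gated cells (0.38 ± 0.10, edgeR adjusted p = 0.0065); this call was kept under 11 of 20 alternatives. Among cells with 2 or more Siglecf UMIs the sign of Cd63 turned (-0.20), and the call was lost under 8 others (0.14 to 0.40, adjusted p up to 0.79 in edgeR), among them without anti-VSIG4 1 (0.34) or anti-VSIG4 2 (0.29).

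Of 6 subunits of the NADPH oxidase, which makes superoxide in phagocytes, 3 were lower than in all other gated cells (median -0.41) and 0 of 5 passed against matched cells (median -0.04, and 0.03 with library totals; 2 at an unadjusted p under 0.05 in edgeR). With library totals, 2 were lower and 1 higher, and against matched cells 1 was higher. Cyba, the small membrane subunit, did not pass in either comparison (-0.03 and -0.03).

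Of 20 tested genes of the integrated stress and unfolded protein responses, 4 were lower than in all other gated cells and 0 higher (20%, beside 16.0% of all genes called; median -0.09); this split turns with the scaling, to 2 higher and 2 lower with library totals (median 0.08). Ppp1r15a, the phosphatase subunit that ends the stress-induced stop in translation, lay at 575 to 1134 CPM (median 772), 1254 to 1926 CPM (median 1518) and 969 to 1374 CPM (median 1021) and was lower in both comparisons (-1.07 ± 0.09 and -0.47 ± 0.08, edgeR adjusted p = 2.96e-14 and 0.000694). Atf4, the central factor of that response, did not pass in either (0.23 and -0.01). Against matched cells 2 of 17 (11.8%, beside 2.86% of all genes called) were lower, Ddit3 and Ppp1r15a, with 0 higher and a median of -0.05 (1 lower and a median of 0.02 with library totals).

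Lipid mediator enzymes split. Of 13 tested, Ltc4s was higher and 3 were lower than in all other gated cells (median 0.08; 3 higher and 3 lower with library totals). Alox5ap, which hands arachidonate to 5-lipoxygenase, was lower (-0.86 ± 0.13, edgeR adjusted p = 1.04e-06), as was Mgst1 (-2.26); Alox5 itself did not pass (0.39, 0.129). Ptgs2, inducible cyclooxygenase, lay at 542 to 1414 CPM (median 879), 956 to 1522 CPM (median 1254) and 852 to 1458 CPM (median 1079.9) and was lower in both comparisons (-0.67 and -0.38, edgeR adjusted p = 1.71e-07 and 0.00542). Among genes of extracellular adenosine, Entpd1, which encodes CD39, lay at 62.7 to 338 CPM (median 146) against 309.9 to 833 CPM (median 445) and 160.2 to 362 CPM (median 241). It was the 1 gene that passed, of 5 tested against all other gated cells and of 3 against matched cells. Entpd1 was lower by both comparisons (-1.84 ± 0.15 and -0.73 ± 0.17, edgeR adjusted p = 7.43e-13 and 0.00876).

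Of 19 glycolysis genes tested, 7 were lower than in all other gated cells on the TMM scale (36.8%, beside 10.8% of all genes lower), 0 were higher and 12 did not pass (median -0.27), but with library totals 6 were lower and 3 higher (median -0.10). Against matched cells 3 were lower (15.8%, beside 2.53% of all genes), 0 higher and 16 did not pass (median -0.26; 1 lower with library totals). Slc16a3, the lactate exporter, lay at 403 to 791 CPM (median 561), 908 to 1649 CPM (median 1089) and 630.3 to 1009 CPM (median 847) and was lower in both comparisons (-1.18 ± 0.11 and -0.56 ± 0.09, edgeR adjusted p = 6.11e-12 and 0.000269). The hypoxia list went another way in the broad comparison, with 3 of 15 higher and 0 lower (median -0.01; 4 higher and a median of 0.16 with library totals), among them Vegfa, the endothelial growth factor, at 554 to 902 CPM (median 578) against 317 to 537 CPM (median 429.7) (0.33 ± 0.11, edgeR adjusted p = 0.0268). Leaving out IgG 3 moved Vegfa to 0.22 (edgeR adjusted p = 0.22), leaving out anti-VSIG4 1 to 0.26 (0.19) and leaving out anti-VSIG4 2 to 0.29 (0.081), each ending the call, which was kept under 11 of 20 alternatives. Against matched cells 0 of 15 were higher and 2 lower (median -0.31; 1 lower with library totals), the mitochondrial protein Higd1a (-0.67 ± 0.14, edgeR adjusted p = 0.00261) and the oxidoreductase Ero1a (-0.62 ± 0.15, 0.0202), and Vegfa did not pass (0.17, 0.504).

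Of 23 tested genes of death receptors and survival, 8 were lower than in all other gated cells and 0 higher (median -0.24; 7 lower and 3 higher with library totals), and 4 of 19 were lower than in matched cells (median -0.05; 4 lower and a median of 0.02 with library totals). The 4 were on both sides of cell death. Mcl1, a survival protein that neutrophils depend on, lay at 2140.2 to 2486 CPM (median 2436) against 3177 to 3787 CPM (median 3364) and 2542 to 3318 CPM (median 2706). Bcl2l11, which encodes the death-promoting BIM, lay at 193 to 270.3 CPM (median 205) against 303 to 410.5 CPM (median 318) and 292 to 368 CPM (median 315). Neither overlapped with the other sets, and the log2 differences from matched cells were -0.31 and -0.61 (edgeR adjusted p = 0.00447 and 0.00419). Tnfrsf23, a decoy TRAIL receptor, was at -0.94 (0.0101) and Gadd45b at -0.32 (0.00182). Fas did not overlap with matched cells, at 8.05 to 36.3 CPM (median 31.9) against 37.8 to 63.3 CPM (median 48.2), and did not pass (edgeR adjusted p = 0.107); it passed against all other gated cells (-1.62).

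Of 23 cytokine and chemokine genes tested, 8 were lower than in all other gated cells and 1 higher (median -0.28); with library totals 6 were lower and 5 higher (median -0.11). Against matched cells 5 of 21 were lower and 0 higher (median -0.22; 3 lower with library totals). Besides Ccl6 and Osm, Cxcl3 lay at 40.3 to 833 CPM (median 258) against 338 to 1949 CPM (median 579) and 261 to 1746 CPM (median 456), with IgG 3 lowest (-0.97 ± 0.14 against matched cells, edgeR adjusted p = 2.67e-05). Il1b, a main inflammatory product of tumour neutrophils, was lower against all other gated cells (-0.77 ± 0.06, edgeR adjusted p = 1.79e-15) and by less against matched cells (-0.19 ± 0.05, 0.047). Ccl3, which attracts macrophages and T cells, lay at 2012 to 6119 CPM (median 4949.8) against 1849 to 3966 CPM (median 3061) in other gated and 3103 to 6315 CPM (median 5188) in matched cells. It was higher than the former (0.38 ± 0.08, edgeR adjusted p = 0.000418) and did not pass against the latter, with the opposite sign (-0.21 ± 0.10, 0.412). Tnf (0.14) and Il1rn (0.07) did not pass against all other gated cells.

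Transcription factors of the immediate early, AP-1, NF-kB and C/EBP families were lower as far as they passed. Of 29 tested, 18 were lower than in all other gated cells (62.1%, beside 10.8% of all genes) and 0 higher (median -0.41). With library totals 11 were lower (median -0.24). Against matched cells 5 of 27 were lower (18.5%, beside 2.53% of all genes) and 0 higher (median -0.21, and 4 lower with library totals). These were Fosl1 (-1.59), Nfkbiz (-0.59), Nfkbia, the inhibitor that NF-kB itself induces (-0.53), Klf2 (-0.43) and Cebpb (-0.26). Nfkbia lay at 2476 to 5267 CPM (median 3167) against 3729 to 6844 CPM (median 4409) (edgeR adjusted p = 1.71e-06), lower within 6 of 6 libraries.

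T cell inhibition genes gave 4 lower and 0 higher of 12 tested (median -0.22; 2 lower with library totals), Cd274, which encodes PD-L1, at -0.87 and Arg2 at -1.01 (edgeR adjusted p = 4.82e-09 and 1.15e-07); 0 of 11 passed against matched cells, where 3 had an unadjusted p under 0.05 (median -0.03, and 0.04 with library totals). Of 18 oxidative stress and iron genes 5 were lower and 1, the peroxidase Gpx1, was higher than in all other gated cells (median -0.17; 5 and 3 with library totals). Against matched cells 3 of 15 were lower (median -0.17; with library totals 3 lower and 1 higher): Fth1, ferritin heavy chain, at -0.50, the cystine transporter Slc7a11 at -0.75 and haem oxygenase Hmox1 at -0.78 (edgeR adjusted p = 2.09e-06, 0.00083 and 0.0161). Lysosome and lipid genes split, with 3 higher and 5 lower of 21 (median -0.11; 4 higher and 3 lower with library totals, median 0.06), Hexa (0.60) and Fabp5 (-0.86) being examples. None of 19 passed against matched cells (8 at an unadjusted p under 0.05; 1 higher with library totals). Of 17 matrix, protease and growth factor genes 6 were lower and Vegfa higher (median -0.36; 6 and 2 with library totals); against matched cells 2 of 16 were lower, Adam8 (-0.72 ± 0.17) and the urokinase receptor Plaur (-0.38 ± 0.07; edgeR adjusted p = 0.0115 and 0.00139). Nuclear receptor and cholesterol efflux genes gave 3 lower of 10 (median -0.20; 1 lower and 1 higher with library totals), led by Ppard (-1.25), and 0 of 7 against matched cells (3 at an unadjusted p under 0.05).

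**Figure D4:**
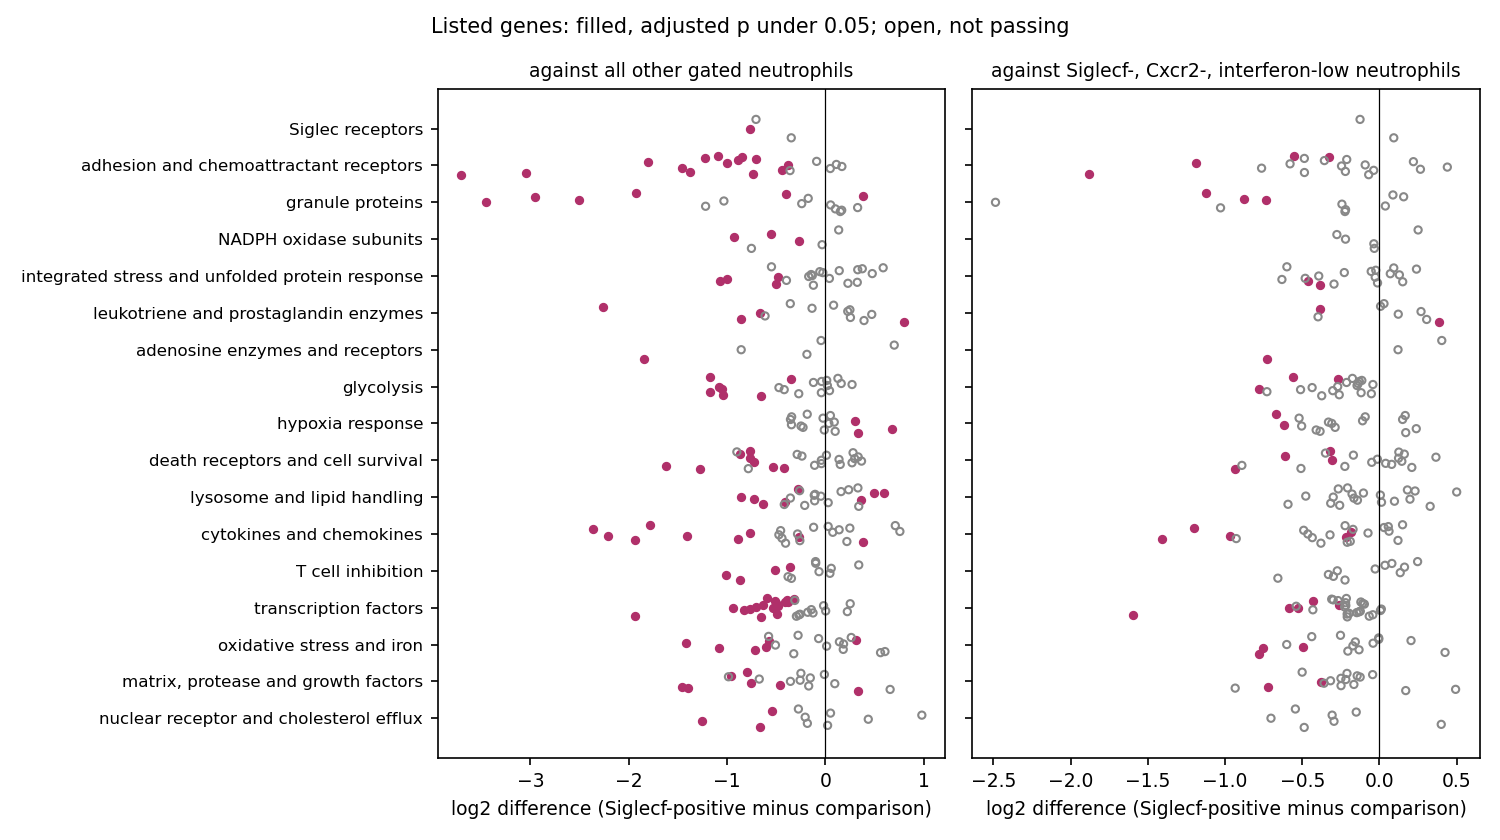
Log2 difference of each tested gene of 17 lists, Siglecf-positive against all other gated neutrophils (left) and against matched neutrophils (right), on the TMM scale; filled points have an adjusted p under 0.05. Adhesion receptors and transcription factors lie mostly below 0 on the left, with medians of -0.85 and -0.41, and move towards 0 on the right, to -0.29 and -0.21.

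Levels by number of Siglecf UMIs are given as a description. Ltc4s averaged 478 CPM over libraries in matched cells, 655 in cells with 1 Siglecf UMI and 661 in cells with 2 or more. Gpr171 averaged 61.7, 117 and 162 CPM, and Hvcn1 55.4, 109 and 116. Tmem14c, Eef1e1 and Cox6b1 were also highest at 2 or more. The other higher genes averaged less at 2 or more than at 1 UMI, though more than in matched cells. They were Gpd1l (26.5, 75.4 and 58.4 CPM), Rbx1 (415, 629 and 505), Hnrnpa3 (113, 196 and 135), H1f2, Atp5mj, Rgs3, Uqcc3, Tmem126a and, marginally, Ncoa4. On the lower side Ccl6 averaged 755, 296 and 246 CPM, Slpi 762, 388 and 309.7, and Osm 366, 163 and 195. For Ltc4s, Hvcn1, Ccl6, Slpi and Osm the step from 0 to 1 UMI was several times that from 1 to 2 or more, and for Gpr171 the steps were closer in size. The bin at 1 UMI holds 405 cells and the upper bin 119 cells with 2 and 32 with 3 or more UMIs; the difference between these bins was not tested.

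No gene of the Siglecf-positive neutrophils differed between the arms at an adjusted p under 0.05 in edgeR: 0 of 2521 passed (0.0%), while 151 had an unadjusted p under 0.05, and 2 passed in DESeq2. In the other gated neutrophils 0 of 10561 passed (0.0%; 596 unadjusted). The genes with the smallest p are given with their values, as not passing.

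Car4, a membrane-bound carbonic anhydrase, lay at 50.8, 58.2 and 48.3 CPM in the Siglecf-positive cells of IgG 1, 2 and 3 and 255, 111 and 307 CPM in those of anti-VSIG4 1, 2 and 3. The arms did not overlap. The log2 difference was 2.21 ± 0.41 (edgeR adjusted p = 0.0992; DESeq2 adjusted p = 0.0308). In the other gated neutrophils Car4 lay at 49.1, 60.5 and 69.9 CPM and 155, 217 and 149 CPM, with 1.61 ± 0.19 (edgeR adjusted p = 0.109), so it was higher under the antibody there too, and the difference between these differences did not pass (0.71 ± 0.38, adjusted p = 1).

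Cd177, a surface glycoprotein of neutrophils, lay at 338, 300.1 and 217 CPM and 611, 1227 and 590.1 CPM in the same order, again without overlap, with anti-VSIG4 2 highest. Its log2 difference was 1.52 ± 0.30 (edgeR adjusted p = 0.106; DESeq2 adjusted p = 0.0308), and in the other gated cells 0.82 ± 0.19 (edgeR adjusted p = 0.864). Ltf, lactoferrin of secondary granules, lay at 76.1, 89.6 and 48.3 CPM and 143, 276 and 247 CPM (1.63 ± 0.37, edgeR adjusted p = 0.278), and F10, coagulation factor X, at 42.3, 107 and 40.3 CPM and 204, 188 and 201 CPM (1.58 ± 0.38, 0.351). Neither overlapped between arms.

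Genes of the label and of the matched comparison did not pass between arms. The log2 difference was -0.27 ± 0.27 for Ltc4s, -0.72 ± 0.37 for Gpr171, -0.65 ± 0.43 for Ddit3, 0.00 ± 0.24 for Igfbp6 and -0.23 ± 0.42 for Entpd3 (edgeR adjusted p = 0.936, 0.868, 0.923, 0.999 and 0.978). With 3 mice an arm these standard errors are large, and a p that misses the threshold does not show equal levels.

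Summed markers of pancreatic and tumour cells did not overlap between the arms within the Siglecf-positive gate, a description without a test of the sums. The neutrophil, macrophage and alveolar macrophage lists separated there too. Even full separation of 3 against 3 mice cannot go below p = 0.1 in an exact permutation test. Tumour and epithelial markers summed to 309 to 592 CPM in the 3 IgG libraries and 125 to 250 in the 3 anti-VSIG4 libraries, and acinar markers to 398 to 645 and 153 to 298. Acinar markers did not overlap in matched (357 to 617 and 176 to 285) or Cxcr2-positive cells (296 to 451 and 68.1 to 291) either. They overlapped in interferon-high cells (176 to 360 and 129 to 234). Tumour and epithelial markers overlapped in matched (157 to 625 and 98.7 to 556), Cxcr2-positive (128 to 328 and 101 to 322) and interferon-high cells (220 to 610 and 101 to 263). In Siglecf-positive cells the neutrophil list, which holds genes that the gate used, ran the other way. It summed to 34074 to 38404 CPM under IgG and 47625 to 54564 under anti-VSIG4. This list overlapped in matched cells (39409 to 46005 and 44730 to 55072). It also overlapped in Cxcr2-positive (46212 to 57753 and 56072 to 64536) and interferon-high cells (48248 to 67053 and 55070 to 71168). Krt8, a keratin of epithelial cells, lay at 288, 152 and 258 CPM and 92.6, 122 and 59.3 CPM (-1.34 ± 0.36, edgeR adjusted p = 0.587). Prss2, one of several near-identical trypsinogens, lay at 389, 443 and 443 CPM and 139, 221 and 244 CPM (-1.01 ± 0.29, 0.597). Macrophage markers summed to 556 to 1260.4 CPM under IgG and 1292 to 1944 under anti-VSIG4 in Siglecf-positive cells, and overlapped in the other classes. The alveolar macrophage list, which includes Car4, did not overlap in any class. It summed to 56.4 to 71.7 CPM under IgG and 122 to 369 under anti-VSIG4 in Siglecf-positive cells. In the same order it gave 92.8 to 159 and 257 to 295 in matched cells. Cxcr2-positive cells had 61.7 to 75.7 and 268 to 289, and interferon-high cells 49.6 to 82.3 and 110 to 167. The part of such RNA in the treatment values was not tested.

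The difference in treatment response between Siglecf-positive and other gated neutrophils passed for 11 of 7991 genes (0.138%), 9 higher (0.113%) and 2 lower (0.025%). Reg3b, an acinar stress protein, was one of the lower: it lay at 84.6, 94.1 and 64.4 CPM and 23.1, 0 and 3.30 CPM in Siglecf-positive cells and at 27.9, 10.9 and 31.8 CPM and 54.2, 33.8 and 10.4 CPM in the others. The interaction was -3.62 ± 0.67 (edgeR adjusted p = 0.00013) and -3.84 ± 0.69 with matched cells as the partner (adjusted p = 0.00188). Its relation to the acinar markers above was not tested. Clic4, a chloride channel family protein, lay at 186, 103 and 64.4 CPM and 148, 608 and 168 CPM, overlapping, with anti-VSIG4 2 far highest, and had an interaction of 1.55 ± 0.30 (edgeR adjusted p = 0.000645). Sgms2, which makes sphingomyelin, lay at 102, 31.4 and 32.2 CPM and 120.3, 144 and 92.3 CPM (1.84 ± 0.39, edgeR adjusted p = 0.00258), and Slc7a11 at 338, 143 and 80.5 CPM and 463, 287 and 191 CPM (1.10 ± 0.26, 0.0231).

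The granule genes Ngp and Camp gave the largest interactions. Camp, the cathelicidin precursor, had an interaction of 5.88 ± 0.53 (edgeR adjusted p = 5.65e-24), yet 1092 of its 1115 UMIs in Siglecf-positive neutrophils came from 1 barcode of anti-VSIG4 3, and 13 of the 556 cells had a Camp UMI. Ngp (6.12 ± 0.79), Retnlg (3.11 ± 0.48) and Lcn2 (1.94 ± 0.36) passed as well. Without the barcodes holding 10 or more Camp UMIs, which among Siglecf-positive cells were 1 of anti-VSIG4 1 and 1 of anti-VSIG4 3, 4 genes passed, Clic4, Gzma, Reg3b and Sgms2, and the values were -0.83 ± 1.30 for Camp, 0.68 ± 1.78 for Ngp, -0.12 ± 0.75 for Retnlg and 0.77 ± 0.42 for Lcn2. With matched cells as the partner, 3 of 5486 passed (0.0547%): Ngp and Retnlg higher (0.0365%) and Reg3b lower (0.0182%). DESeq2 called 0 interactions, so no gene passed the interaction in both tools.

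**Figure D5:**
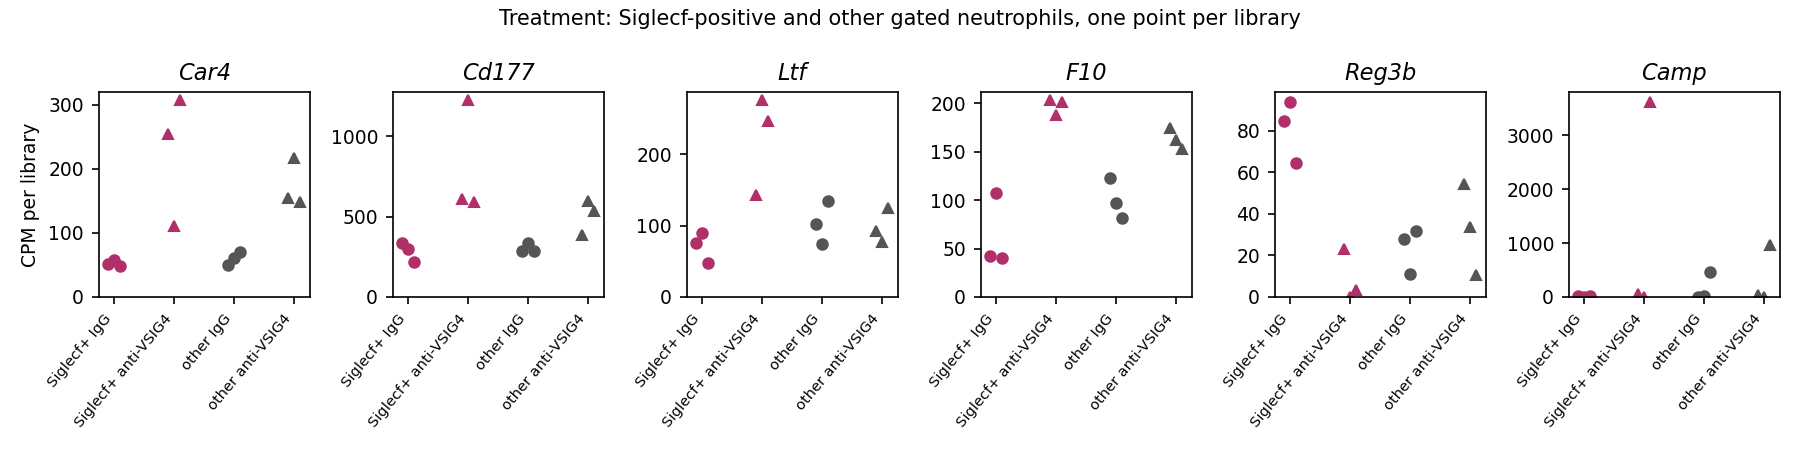
Level in CPM per library of Car4, Cd177, Ltf, F10, Reg3b and Camp in Siglecf-positive and in other gated neutrophils, IgG against anti-VSIG4. Car4 and Cd177 do not overlap between arms in Siglecf-positive cells, Reg3b is higher under IgG there and overlaps in the other gated cells, and the high Camp value of anti-VSIG4 3 rests on 1 barcode.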

How the data were processed

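The authors deposited 1 sparse matrix per library whose values are UMI counts per gene and barcode, written by PISA 1.0 per the file headers. STAR and Seurat 4.11 are named in the submitters' processing notes, without their steps. Build and annotation: not given in the sources used here. Libraries were made on the DNBelab C TaiM4 V3.0 platform, per the labels' protocols. No deposited barcode had fewer than 1000 UMIs, a selection made by the authors. No further cell filter and no doublet caller was applied; an alternative left out the deepest 5% of gated barcodes.

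The gate was applied to raw counts. Counts were summed per library for Siglecf-positive, other gated and matched cells, and the 21 genes of the rule were removed before testing. edgeR 4.0.16 with limma 3.58.1 in R 4.3.3 (TMM, filterByExpr, robust quasi-likelihood fit, library as a term in the comparisons within libraries, Benjamini-Hochberg adjustment over all genes tested, threshold 0.05) gave the main results, and DESeq2 1.42.0 an alternative. Levels are CPM of the summed counts, and log2 differences carry the model's SE. CPM is not per length, so levels are compared within a gene only. Treatment differences were tested over 3 against 3 mice. Single values were tested by exact permutation or sign-flip over libraries with scipy 1.17.1. Python 3.11.15, numpy 2.4.6, pandas 2.3.3 and matplotlib 3.10.9 were used for the rest. Thinning used a fixed seed. Gene spans came from GENCODE, for the long-gene share alone; symbols matched for 88.3% of genes, which hold 97.0% of UMIs. The edgeR test was tried on simulated sums with known changes, for the comparison within libraries and the treatment comparison only. The gate, the thinning, the interaction test and the permutation tests were not tried in this way.

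The rule, the markers, the 17 gene lists and the tests were chosen with earlier results of these data known. Named were the 5 markers, list genes that passed, up to 15 other genes per direction by size of change among those past the threshold, and, between arms, those of smallest p. Naming from the matched comparison, the library-total scaling, the comparison with interferon-high cells, the removal of Camp-rich barcodes and the split of libraries at 3% nucleus-like barcodes were added after the values were seen. Same-numbered IgG and anti-VSIG4 libraries did not deviate together in every pair (r = 0.18, -0.10 and 0.23), so no pairing was assumed. Some list genes that passed are counted and not reported by name here.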

Additional observations from a re-analysis of the deposited data

Results flagged for a closer look

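For 141 named genes, the log2 ratio of CPM plus 5, Siglecf-positive over other gated neutrophils, was taken in each library, and in 9 of them 1 of the 6 libraries stood apart from the rest by Dixon's criterion; chance gives about 1 in 20. IgG 3 stood apart for Siglece (0.78, the others -0.52 to -0.14), Osm (-3.84, the others -2.22 to -1.38) and Cxcl3 (-2.92, the others -1.37 to -0.73). IgG 1 stood apart for Ppard (-2.16, the others -1.07 to -0.66) and Hba-a2 (-5.16, the others -2.28 to -0.59), IgG 2 for Lrg1 (-3.95, the others -2.52 to -1.96). Among the anti-VSIG4 libraries, replicate 1 stood apart for Ier3 (-0.25, the others -1.12 to -0.82), replicate 2 for Prdx5 (0.0039, the others -0.56 to -0.36) and replicate 3 for Mtss1 (0.58, the others 1.13 to 1.36). Osm, Cxcl3, Ppard, Lrg1 and Hba-a2 were lower in Siglecf-positive cells in the other 5 libraries too; Hba-a2 has a near-identical copy, so its reads are uncertain.

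The difference between Siglecf-positive and other gated neutrophils in the anti-VSIG4 minus IgG log2 change passed for 11 genes by the interaction test. It was 5.88 for Camp, 6.12 for Ngp, 3.11 for Retnlg, 1.94 for Lcn2, 1.49 for Ltf, 2.92 for Stfa2l1, 1.55 for Clic4, 1.84 for Sgms2 and 1.10 for Slc7a11, and it was -3.62 for Reg3b and -2.46 for Gzma. Gzma, a protease of cytotoxic lymphocytes, lay at 25.4, 139 and 8.05 CPM under IgG and 55.5, 11.1 and 9.89 CPM under anti-VSIG4 in Siglecf-positive cells, with IgG 2 highest. Clic4, Gzma, Reg3b and Sgms2 passed without the Camp-rich barcodes (edgeR adjusted p = 0.00176, 0.0492, 0.000546 and 0.0152).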

How the results depend on the processing

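Against all other gated cells 1087 genes passed. The number was 474 with at least 2 Siglecf UMIs (12 higher, 462 lower), 520 with no library term, 693 in cells of 1000 to 2000 UMIs, 129, 408 and 1694 against matched, Cxcr2-positive and interferon-high cells, and 788 to 1074 leaving out 1 library. Without a filter on low counts it was 1173 (35 higher, 1138 lower) and with library totals 1319 (821 higher, 498 lower). Against matched cells 129 passed, 85 with DESeq2, 332 with no filter on low counts (3 higher, 329 lower), 46 in cells of 1000 to 2000 UMIs and 65 to 135 leaving out 1 library (66 without IgG 1, 65 without anti-VSIG4 1, 75 without anti-VSIG4 2). The cause of these shifts was not tested. Signs turned for Cd63 (-0.20), Ccl3 (-0.067), Mtss1 (-0.25) and Hnrnpa3 (-0.060) with at least 2 Siglecf UMIs, for Hp (0.087), Mif (-0.11), Tnfrsf1a (0.21), Ctss (0.10), Ccl3 (-0.21) and Il4ra (0.036) against matched cells, and for Tnfrsf1a (0.031) and Ctss (0.027) against Cxcr2-positive cells. Over genes and alternatives, 2355 values against all other gated cells kept direction and call, 356 lost the call and 12 turned; against matched cells 342 kept and 101 lost it.

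Between arms 0 genes passed in Siglecf-positive cells. The number was 2 with DESeq2, 17 with no filter on low counts, 1 at 2% neutrophil genes, 2 on thinned cells, 1 without the deepest 5% of barcodes, 1 with that split of libraries (few or many nucleus-like barcodes) as a covariate, 11 in the 3 libraries with few nucleus-like barcodes alone, 26 in the other 3 alone, and 0 to 7 leaving out 1 library (7 without IgG 1, 3 without anti-VSIG4 2, 1 without IgG 2); in the 3-library fits 1 arm has a lone sample, assumed to vary like the other arm. With the replicate block 5 passed (Apoe, Car4, Cd177, Cxcl3 and Lcn2), and the share difference stayed 0.228; the labels share only a number, and not every library correlated best with its own number. Interactions passed for 11 genes, 0 with DESeq2, 0 with at least 2 Siglecf UMIs, 4 without the deepest 5%, 4 without Camp-rich barcodes, 1 in the 3 libraries with few nucleus-like barcodes, 3 against matched cells and 5 to 17 leaving out 1 library (17 without IgG 2, 7 without IgG 3, 5 without anti-VSIG4 3). Camp turned to -0.11, -0.83 and -1.92 without the deepest 5%, without Camp-rich barcodes and in the 3 libraries with few nucleus-like barcodes, and Retnlg to -0.12 without Camp-rich barcodes. The share difference of 0.228 percentage points was -0.185 with at least 2 Siglecf UMIs and -0.231 to 0.808 leaving out 1 library (-0.0304 without IgG 1).

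Depth limits what can be seen: with 90477 to 303331 UMIs per library in Siglecf-positive cells, genes of low level were not tested, and small differences between arms were not detectable with 3 mice each.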
